A study of Mus musculus with 6 samples.

Results

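Bone morphogenetic protein (BMP) signalling was examined through 10 named genes, the 6 ligand genes Bmp2, Bmp3, Bmp4, Bmp5, Bmp6 and Bmp7 and the 4 receptor genes Bmpr1a, Bmpr1b, Bmpr2 and Acvr1. The genes were found by matching each symbol to its Ensembl identifier in the GENCODE M21 annotation, and 8 of the 10 had a row among the 29616 genes of the table. Bmp5 and Bmp7 were not analysed here. RNA was sequenced from bone cells of C57BL/6 mice as 3 control libraries and 3 libraries of animals treated with the synthetic glucocorticoid dexamethasone (0.08 µg/g each day over 4 weeks, beginning at 8 weeks of age). According to the study's methods, marrow was flushed from the bones before Osteocalcin-positive cells were isolated, and controls are called both non-treated and saline in the study. Whether cells of several mice were pooled in a library is not given. In the labels nothing says that the libraries of a group came from separate animals, so the p-values measure the spread between these libraries. In the recovered reads each library held between 72596611 and 89910728, and a count of 0 in a library allows up to 3 reads, a limit that covers counting error only. Values are given as normalized counts, the read count of a gene divided by a size factor of its library.

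The BMPs are secreted dimeric ligands that were named for their capacity to induce bone. They bind complexes of type I receptors, here Bmpr1a, Bmpr1b and Acvr1, and type II receptors such as Bmpr2, and the activated type I receptor phosphorylates the BMP Smads, which enter the nucleus with Smad4 and switch on targets such as the Id genes. In osteoblasts, the cells that lay down bone matrix, this pathway promotes differentiation, and secreted antagonists such as noggin and chordin hold the ligands away from the receptors.

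The promoter windows of the 4 members with enough reads to be compared are shown first, since the comparisons described below rest mainly on these genes. Each window runs from 250 bases before to 50 bases after the start of the gene, on the strand of the gene, and was taken from RefSeq in the GRCm38.p6 build, whereas the submitters' processing notes name GRCm39. Of the 10 genes, 7 matched an entry in this promoter table. The windows lie at chr14:46390620-46390919 on the minus strand for Bmp4, at chr14:34502497-34502796 on the minus strand for Bmpr1a, at chr1:59764029-59764328 on the plus strand for Bmpr2 and at chr2:58566779-58567078 on the minus strand for Acvr1. Capitals mark 3 searched motifs, read on both strands, which are the GC box GGGCGG, the GC-rich BMP Smad motif GGCGCC and the hexamer AGAACA that forms each arm of the glucocorticoid receptor palindrome.
Bmp4: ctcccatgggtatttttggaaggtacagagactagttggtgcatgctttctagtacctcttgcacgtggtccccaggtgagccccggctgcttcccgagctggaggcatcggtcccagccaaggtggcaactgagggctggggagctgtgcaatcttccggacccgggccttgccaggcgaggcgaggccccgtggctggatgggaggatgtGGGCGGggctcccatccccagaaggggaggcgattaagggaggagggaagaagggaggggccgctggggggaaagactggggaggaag
Bmpr1a: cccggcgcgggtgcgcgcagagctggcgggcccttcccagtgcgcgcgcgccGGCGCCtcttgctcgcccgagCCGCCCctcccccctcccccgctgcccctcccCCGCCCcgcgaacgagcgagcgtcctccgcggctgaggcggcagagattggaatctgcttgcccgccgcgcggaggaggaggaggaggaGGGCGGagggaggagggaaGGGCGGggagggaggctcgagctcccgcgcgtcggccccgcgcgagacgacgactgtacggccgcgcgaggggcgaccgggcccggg
Bmpr2: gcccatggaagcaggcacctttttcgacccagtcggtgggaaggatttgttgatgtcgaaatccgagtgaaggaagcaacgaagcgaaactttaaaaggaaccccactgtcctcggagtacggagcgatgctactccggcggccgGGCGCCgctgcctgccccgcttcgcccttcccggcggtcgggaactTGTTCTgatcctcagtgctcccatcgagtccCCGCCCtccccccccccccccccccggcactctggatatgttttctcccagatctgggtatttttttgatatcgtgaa
Acvr1: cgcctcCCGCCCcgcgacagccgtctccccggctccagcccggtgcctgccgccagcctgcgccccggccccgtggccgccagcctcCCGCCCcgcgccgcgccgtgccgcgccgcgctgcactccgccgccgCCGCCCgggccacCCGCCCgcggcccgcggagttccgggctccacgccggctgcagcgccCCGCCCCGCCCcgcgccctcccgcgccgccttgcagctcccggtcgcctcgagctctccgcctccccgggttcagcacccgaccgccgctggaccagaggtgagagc
The Bmp4 window had a GC content of 64.0% and held 1 GC box, and neither other motif was found in these 300 bases. The Bmpr2 window, at 59.3% GC, held 1 copy each of the hexamer, the GC box and the GC-rich motif. The Bmpr1a window held 4 GC boxes and 1 GC-rich motif at 79.3% GC, and the Acvr1 window held 6 GC boxes at 83.7% GC, of which a pair overlap by their end bases. Among all 32851 windows of this length, 35.7% held a GC box, 19.0% the hexamer and 11.9% the GC-rich motif, and the median GC content was 52.7%. The full palindrome, the hexamer and its reverse complement 3 bases apart, was found in 3 of all windows, none of them a window of these genes, and the TATA box TATAAA, held by 13.6% of all windows, was also not found in these 4. A match or its lack describes the letters of the window and was not related to the expression values.

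Among the 4 ligand members analysed, Bmp4 was the one that these cells expressed in quantity, and it fell with dexamethasone to 11.7% of its control level. The ligand that it encodes is a potent inducer of osteoblast differentiation. Across control replicates 1, 2 and 3, Bmp4 reached 5583, 6138 and 5907 normalized counts, as compared with 726, 657 and 676 across dexamethasone replicates 1, 2 and 3. All 3 control libraries therefore lay far above all 3 dexamethasone libraries, and the libraries of a group differed little among themselves. The means were 5876 ± 279 (SD, n = 3) and 686 ± 35.5 (SD, n = 3) normalized counts, an 8.56-fold lower level with dexamethasone. On the scale of log2(normalized count + 1), the change was -3.10 with a standard error of 0.0486 (95% interval -3.20 to -2.996, limma adjusted p = 1.7e-25 over 17442 genes).

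A gene was called differentially expressed where the adjusted p-value was under 0.05 and its level changed, up or down, by at least 1 on the log2 scale. With this rule Bmp4 was the 1 member called of the 4 members that passed the filter of a mean of at least 10 normalized counts. Among all genes tested the rule called 22.3%, with 10.6% called lower and 11.7% called higher, so that a call by itself was common in this comparison. The size of the change was less common, since 126 of the 17442 genes, or 0.72%, had a lower log2 fold change than Bmp4. The genes with the profile closest to that of Bmp4 over the 6 libraries were Pappa2, a protease of insulin-like growth factor binding proteins, Cyp1b1, a cytochrome P450 enzyme, and Slc24a3, a sodium, potassium and calcium exchanger. Their root mean square differences from the centred log2 profile of Bmp4 were 0.0355, 0.0397 and 0.0411 among 12020 genes compared, and their log2 fold changes were -3.11 each. This nearness describes 6 libraries in which the groups stand apart, and many genes that fell by a like amount come close by this measure.

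An annotated gene on the opposite strand, Gm15217, overlaps 3.96% of the exon bases of Bmp4 in GENCODE M21. Gm15217 had 12.3 to 23.0 normalized counts in the control libraries and 1.16 to 5.72 in the dexamethasone libraries, far under the level of Bmp4. The strand setting of the authors' count is not given in the sources used here. Of the 75-base positions of the longest Bmp4 transcript, 99.2% occur in no other annotated gene, so that few of its reads could be shared.

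**Figure D1:**
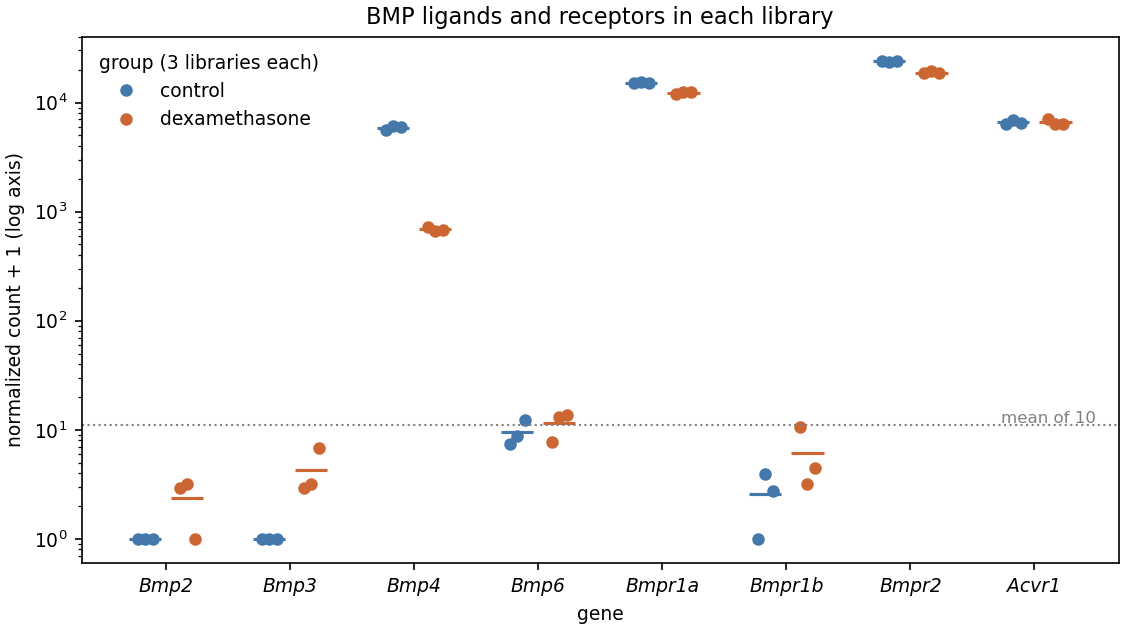
Normalized count + 1 on a log axis for the 8 genes with a row in the table, with points for the 3 control (blue) and 3 dexamethasone (orange) libraries and a line at each group mean; the dotted line marks a mean of 10. Bmp4 drops from a lowest control value of 5583 to a highest dexamethasone value of 726, Bmpr1a and Bmpr2 lie slightly lower with dexamethasone, Acvr1 overlaps, and Bmp2, Bmp3, Bmp6 and Bmpr1b lie near or under the dotted line.

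The other ligand members analysed were close to the limit of detection in both groups and did not pass the filter on low values. Bmp2, which encodes the ligand most closely related to BMP4, had 0 reads in all 3 control libraries and 2, 2 and 0 reads in dexamethasone replicates 1, 2 and 3. All of these counts were within the 3 reads that a count of 0 allows, and no difference in Bmp2 was detectable at this depth. Bmp3, which encodes a member known to oppose the osteogenic BMPs, had 0 reads in each control library and 2, 2 and 5 reads in dexamethasone replicates 1, 2 and 3. One dexamethasone library thus lay above the limit and the other two within it, and no fold is given. Without a filter on low values, Bmp3 had a log2 fold change of 1.99 (95% interval 0.73 to 3.26, limma adjusted p = 0.00905), which depends on the added 1, in a fit where 18.0% of all genes were called. For Bmp6, which encodes a ligand expressed in bone and liver, there were 7, 8 and 13 reads in the control libraries against 7, 11 and 11 reads in the dexamethasone libraries, in replicate order. Its groups overlapped, with 8.56 ± 2.58 (SD, n = 3) and 10.5 ± 3.32 (SD, n = 3) normalized counts, and without a filter its log2 fold change was 0.25 (95% interval -0.67 to 1.17). In Bmp6, Txndc5 on the opposite strand overlaps 5.74% of the exon bases and had 25598 to 33638 normalized counts, so that stray reads of Txndc5 in the count of Bmp6 cannot be told apart.

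In contrast to Bmp4, the abundant receptor genes kept between 78.6% and 99.6% of their control means. Bmpr1a, the type I receptor gene with the highest level, had 15114, 15572 and 14991 normalized counts in the control libraries and 11999, 12484 and 12563 in the dexamethasone libraries. The groups did not overlap, and the mean with dexamethasone was 81.1% of the control mean, a log2 fold change of -0.30 (95% interval -0.37 to -0.23, limma adjusted p = 3e-08). Bmpr2, the type II receptor gene, had 24157, 23505 and 24203 normalized counts in the control libraries and 18583, 19284 and 18651 in the dexamethasone libraries. Its groups did not overlap either, and its mean with dexamethasone was 78.6% of the control mean, a log2 fold change of -0.35 (95% interval -0.42 to -0.27, limma adjusted p = 2.47e-09). Both changes passed the adjusted p-value and missed the cut-off on the fold change. Among all genes tested 72.5% had an adjusted p-value under 0.05, with 35.2% lower and 37.2% higher, and the groups did not overlap for 74.7%, with 36.4% lower and 38.4% higher. Both properties were thus common among all genes.

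Acvr1 encodes the type I receptor also known as ALK2, whose activating mutations cause ectopic bone formation. Its normalized counts were 6399, 6885 and 6528 across control replicates 1, 2 and 3, as compared with 7010.2, 6397 and 6329 across dexamethasone replicates 1, 2 and 3. The ranges of the groups overlapped, and no change was detected, with a log2 fold change of -0.0063 and a 95% interval from -0.092 to 0.079 (limma adjusted p = 0.899). With all libraries rescaled to the same total this value was -0.12 and after quantile normalization -0.21, with limma adjusted p-values of 0.00274 and 4.39e-06. The median over all genes moved to -0.11 and -0.076 under these scalings, from 0.00071. Bmpr1b, the type I receptor gene best known from cartilage, had 0, 3 and 2 reads in the control libraries against 10, 2 and 3 reads in the dexamethasone libraries, in replicate order. Its groups overlapped, and without a filter its log2 fold change of 1.26 had a 95% interval from -0.073 to 2.60 (limma adjusted p = 0.12). The higher mean of Bmpr1b with dexamethasone rests on replicate 1, since the other two dexamethasone libraries had 3 reads or fewer.

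**Figure D2:**
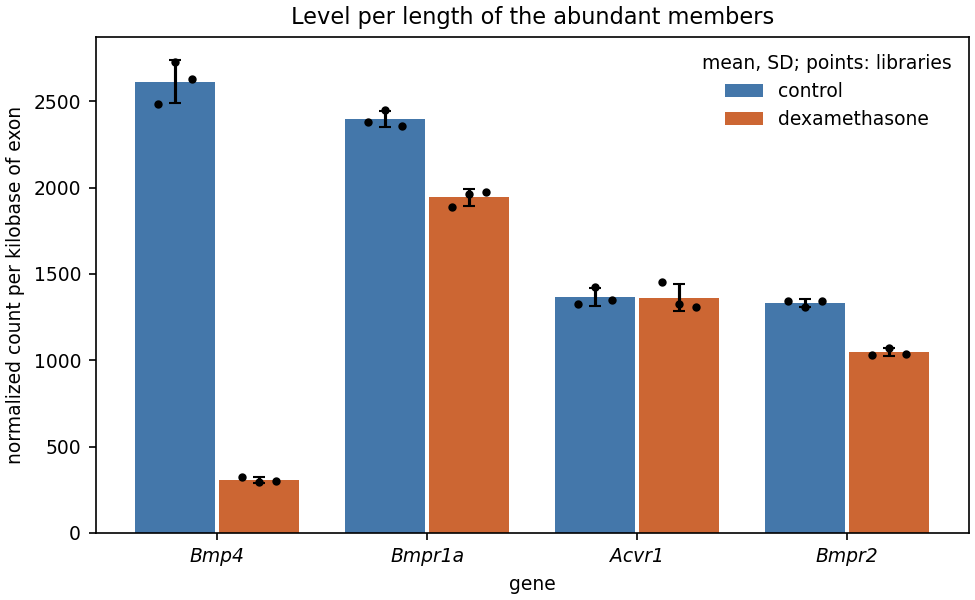
Normalized counts per kilobase of exon of the 4 abundant members, as the mean with SD of 3 libraries per group (blue control, orange dexamethasone) and a point for each library. Bmp4 stands highest in the controls at 2614 and lowest of the 4 with dexamethasone at 305, whereas the receptor genes change little.

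Divided by the union of annotated exons, the levels of different genes can be compared, in normalized counts per kilobase. In the control libraries Bmp4 ranked first at 2614 ± 124 (SD, n = 3), followed by Bmpr1a at 2397 ± 48.2 (SD, n = 3). Acvr1 at 1368 ± 52.1 (SD, n = 3) and Bmpr2 at 1332 ± 21.7 (SD, n = 3) had overlapping ranges and could not be ordered. Bmp6 at 2.19 ± 0.661 (SD, n = 3) came next, and Bmpr1b, Bmp2 and Bmp3 were at or near 0. With dexamethasone the order began with Bmpr1a at 1944 ± 48.1 (SD, n = 3), Acvr1 at 1362 ± 77.7 (SD, n = 3) and Bmpr2 at 1048 ± 21.5 (SD, n = 3), followed by Bmp4 at 305 ± 15.8 (SD, n = 3). Bmp6 remained next at 2.69 ± 0.852 (SD, n = 3), and the ranges of Bmpr1b, Bmp3 and Bmp2 overlapped below it. Per kilobase, Bmp4 was above 93.1% of the tested genes with an annotated length in the controls and above 51.5% of them with dexamethasone. The order depends on the length used. Per kilobase of the longest transcript, Acvr1 at 2005 lay above Bmpr2 at 1857 in the controls without overlap, and with dexamethasone the ranges of Bmpr1a at 2073 and Acvr1 at 1998 overlapped.

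Within the summed ligand level per kilobase, Bmp4 took 99.9% ± 0.0242 (SD, n = 3) in the control libraries and 98.9% ± 0.329 (SD, n = 3) in the dexamethasone libraries, over the 4 ligand genes with a row in the table. The share of Bmp6 was 0.0837% ± 0.0242 (SD, n = 3) and 0.880% ± 0.307 (SD, n = 3), at a level of its own that did not differ beyond its spread. The summed ligand level was 2616 ± 124 (SD, n = 3) in the controls and 309 ± 15.0 (SD, n = 3) with dexamethasone, while the summed receptor level was 5097 ± 76.3 (SD, n = 3) and 4355 ± 25.7 (SD, n = 3). The ratio of the summed ligands to the summed receptors, which does not depend on the scaling of libraries and was chosen after the values were seen, was 0.492, 0.527 and 0.520 in the control libraries. It was 0.0744, 0.0679 and 0.0704 in the dexamethasone libraries. In the receptor sum, the share of Acvr1 went from 26.8% ± 0.629 (SD, n = 3) to 31.3% ± 1.64 (SD, n = 3), that of Bmpr1a from 47.0% ± 0.327 (SD, n = 3) to 44.6% ± 1.32 (SD, n = 3), and that of Bmpr2 from 26.1% ± 0.809 (SD, n = 3) to 24.1% ± 0.486 (SD, n = 3). For each of these 3 shares, and for that of Bmp4, the exact two-sided permutation test gave p = 0.1, the smallest value that 3 against 3 libraries allow, and 0.133 after adjustment over 8 shares.

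Ratios between related members were compared within libraries for the 4 of 6 fixed pairs with both genes in the table. The log2 ratio of Bmpr2 to Bmpr1a was 0.65 ± 0.0524 (SD, n = 3) in the controls and 0.61 ± 0.0341 (SD, n = 3) with dexamethasone. This difference of -0.044 was smaller than the spread between the control libraries (exact two-sided permutation p = 0.3, adjusted over 4 pairs 0.3). For the log2 ratio of Bmpr1b to Bmpr1a the difference was 1.57, for Bmp2 to Bmp4 it was 4.17 and for Bmp3 to Bmp4 it was 5.09, each with an exact permutation p = 0.1 and an adjusted value of 0.133. These 3 ratios rest on a gene with 10 reads or fewer in every library and depend on the added 1.

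Around these members, 59 further genes of the pathway were followed in 6 lists, of which 43 passed the filter. Of these 43 genes, 3 were called higher and 13 lower, or 16 in all. Over all genes tested the rule called 22.3%, with 11.7% higher and 10.6% lower, and the counts of each list stand beside these shares. The median log2 fold change of the 43 genes was -0.31, against 0.00071 over all genes tested. Among other BMP-type ligands the single tested gene of 9, Gdf6, which encodes a ligand of joint and skeletal patterning, had a mean of 1080.3 ± 52.3 (SD, n = 3) normalized counts in the controls and fell to 101 ± 5.04 (SD, n = 3), a log2 difference of -3.40 (limma adjusted p = 1.97e-21). Of 7 tested genes among other receptors and co-receptors, 1 was called higher and 1 lower, with a median of 0.0070. Tgfbr3, which encodes the co-receptor betaglycan, rose from 3337 to 9226 normalized counts (log2 fold change 1.46), and Eng, the co-receptor endoglin, fell from 278 to 113 (-1.30). The type II receptor gene Acvr2a had a log2 fold change of -0.26, the co-receptor gene Rgmb one of 0.17 and Neo1, which encodes neogenin, one of -0.070, none of them called. Among 4 tested genes for enzymes that process proligands or release ligands from chordin, Tll1 was called lower (-1.55), whereas Bmp1, a proteinase and no BMP ligand, had a log2 fold change of 0.36, Furin one of 0.34 and Pcsk6 one of -0.75.

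Of 12 tested genes among the secreted antagonists and modulators, 5 were called lower and 1 higher, with a median of -0.32. Over all genes tested, 10.6% were called lower and 11.7% higher. Chrdl1, a chordin-like antagonist with the highest mean of this list in the controls, had 64188 ± 2675 (SD, n = 3) normalized counts in the controls and fell to 15702 ± 639.9 (SD, n = 3), a log2 difference of -2.03 (limma adjusted p = 1.37e-23). Fst, which encodes the activin and BMP binder follistatin, fell by 2.43 on the log2 scale. Nog, the gene of noggin, dropped to 29.8 ± 7.85 (SD, n = 3) normalized counts from 149.6 ± 4.84 (SD, n = 3), and Chrd, the gene of chordin, from 897 to 279.6. Bmper, a modulator of BMP4, fell by 1.12 on the log2 scale, and Nbl1, an antagonist of the DAN family, rose by 1.28. The BMP binders Fstl1 and Twsg1 had log2 fold changes of -0.33 and 0.094 and were not called, and that of Twsg1 was -0.020 at the same total and -0.13 after quantile normalization. Set against these antagonists per kilobase, Bmp4 fell further. The ratio of Bmp4 to Chrdl1 was 0.275 ± 0.00568 (SD, n = 3) in the controls and 0.132 ± 0.0116 (SD, n = 3) with dexamethasone, and that of Bmp4 to Fst was 0.899 ± 0.0106 (SD, n = 3) and 0.568 ± 0.00181 (SD, n = 3). The ratio of Bmp4 to Nog was 27.1, 31.5 and 30.3 in the control libraries and 26.1, 13.8 and 15.6 in the dexamethasone libraries, where the groups lay near each other at dexamethasone replicate 1. These ratios were chosen after the values were seen and are given with no test.

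**Figure D3:**
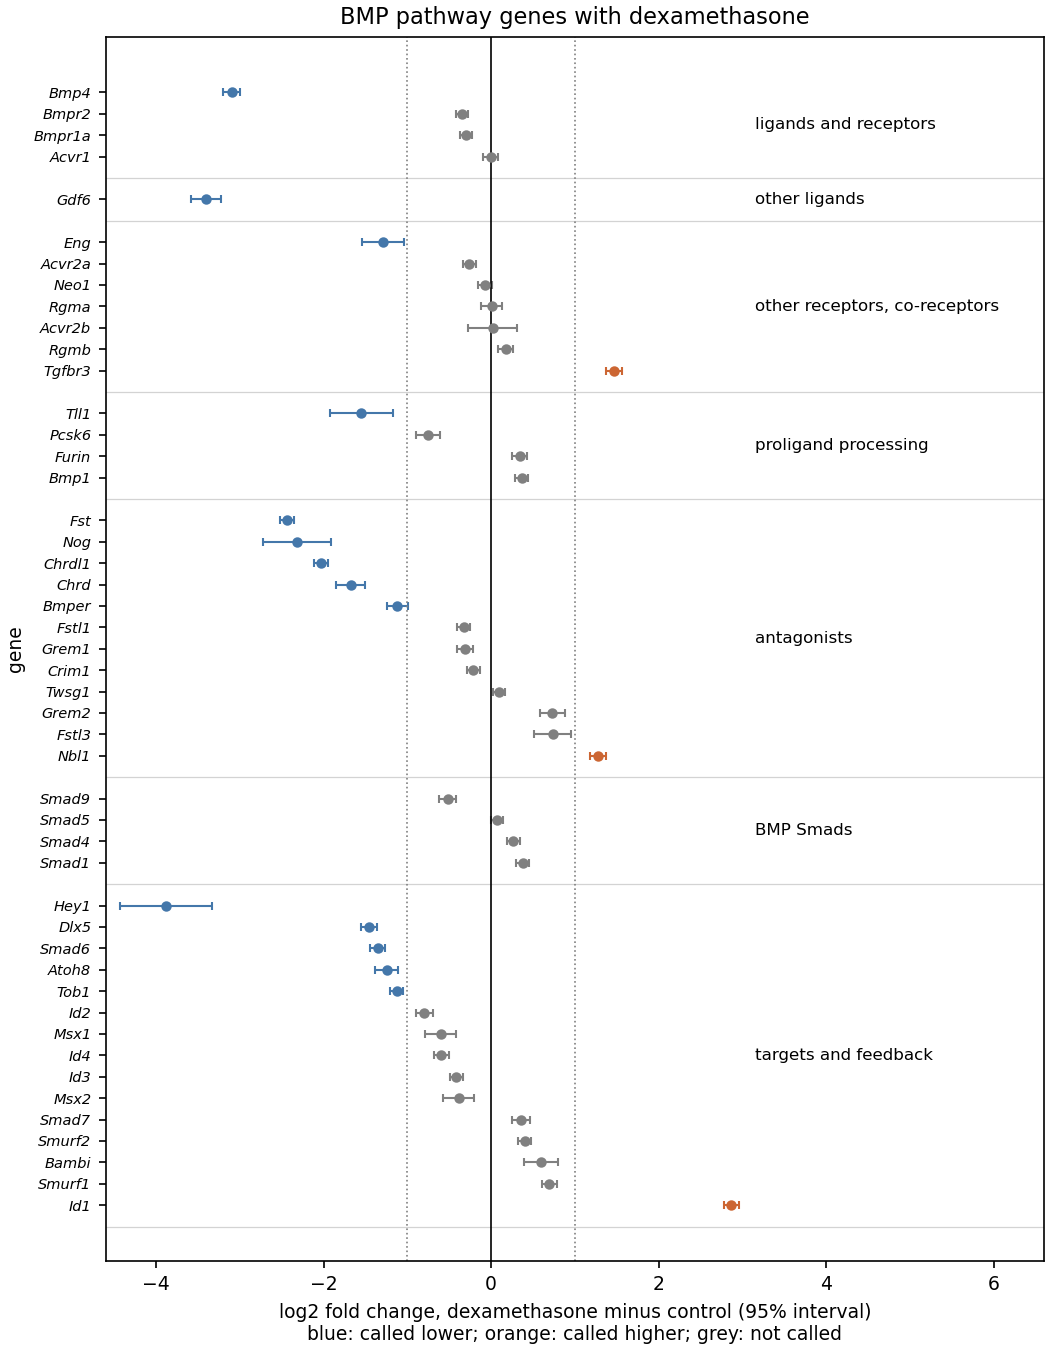
Log2 fold changes (dexamethasone minus control, x axis) with 95% intervals for the 4 tested members and the 43 tested genes of the 6 pathway lists, grouped by role; blue marks genes called lower, orange genes called higher and grey genes not called, and dotted lines mark the cut-offs at 1 in either direction. Bmp4 and Gdf6 stand at -3.10 and -3.40, the member receptor genes Bmpr1a, Bmpr2 and Acvr1 lie within 0.35 of 0, and Id1 at 2.87 stands opposite to Hey1 at -3.88.

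Downstream of the receptors, the 4 tested Smad genes were those of the BMP Smads, Smad1, Smad5 and Smad9, and of their partner Smad4. None was called by limma, edgeR or DESeq2, although 3 had a limma adjusted p-value under 0.05 and all 4 an unadjusted one. Smad1 and Smad4 had log2 fold changes of 0.38 and 0.27, Smad9 one of -0.52 and Smad5 one of 0.072, and the value of Smad5 was -0.0419 at the same total and -0.13 after quantile normalization. Among 15 target and feedback genes, all tested, 5 were called lower and 1 higher, with a median of -0.60. Over all genes tested, 10.6% were called lower and 11.7% higher. At a limma adjusted p-value under 0.05 alone, 10 of the 15 were lower and 5 higher, against 35.2% and 37.2% of all genes tested. The gene called higher was Id1, which encodes an inhibitor of basic helix-loop-helix factors and is a classical target of the BMP Smads. While Bmp4 fell, Id1 went up to 4631 ± 148 (SD, n = 3) normalized counts from 632 ± 6.65 (SD, n = 3), a 7.32-fold higher level (log2 fold change 2.87, limma adjusted p = 2.08e-25). The other Id genes were not called, with log2 fold changes of -0.80 for Id2, -0.41 for Id3 and -0.60 for Id4. Also lower and not called were Msx1 (-0.60) and Msx2 (-0.39). These lower genes all had a limma adjusted p-value under 0.05. Hey1, a transcriptional repressor, fell from 106 to 6.30 normalized counts, and Smad6, an inhibitory Smad induced by BMP signalling, fell from 3743 to 1464. Dlx5, a homeobox factor of osteoblasts, fell by 1.45 on the log2 scale, Atoh8 fell from 1619 to 683 normalized counts, and the antiproliferative factor Tob1 fell by 1.13 on the log2 scale. The ubiquitin ligase genes Smurf1 and Smurf2 had log2 fold changes of 0.70 and 0.40, the inhibitory Smad gene Smad7 one of 0.35 and Bambi, which encodes a pseudoreceptor, one of 0.60. These 4 genes were not called, although each had a limma adjusted p-value under 0.05.

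Markers of the labelled cells and of other cells that could be present moved between the groups as well. Of 10 osteoblast markers, 9 were called lower and 1, Spp1, higher, with a median of -1.81. Over all genes tested, 10.6% were called lower and 11.7% higher. Spp1 rose from a mean of 33595 to 1279674 normalized counts. With Spp1 included, the osteoblast markers summed to 2280860 to 2419168 in the control and 2112299 to 2251880 in the dexamethasone libraries. Of the Osteocalcin genes, Bglap had 107 normalized counts on average in the controls and 12.2 with dexamethasone, and Bglap2 had 324 and 31.3. Col1a2, with the highest mean of this list over all 6 libraries, had a log2 fold change of -1.05. The osteocyte marker Dmp1 rose from 38.5 to 5639 normalized counts, whereas Phex and Mepe, the other osteocyte markers tested, had log2 fold changes of 0.60 and -0.77 and were not called, and Sost and Fgf23 were not analysed here. Of 8 endothelial markers, 5 were tested and 1, Esam, was called higher, from a mean of 14.3 to 33.0. The endothelial markers summed to 387 to 425 normalized counts in the control and 483 to 518 in the dexamethasone libraries. Most of this sum was Kdr, which was not called, with a log2 fold change of 0.25. Pecam1, Egfl7 and Tek were not called either (0.74, 0.12 and -0.75), and Cdh5 had 3 reads or fewer in every library. The summed levels of 6 pan-hematopoietic markers were 62.4 to 74.4 and 294 to 347, with 1 of 4 tested called higher (Cd53, from a mean of 15.7 to 283) and 2 lower, and Vav1 at 3 reads or fewer throughout. Those of the macrophage and osteoclast markers, led by Ctsk, were 13107 to 13714 and 8718 to 9301. Most of this sum was Ctsk, which fell from a mean of 13146 to 8353 and was not called. Of 4 tested, Cd68 was called higher (173 to 596) and Mmp9 lower (20.6 to 9.05), and Csf1r (46.0 to 28.3) was not called. Acp5, not tested, had 0 reads in each control library and 7, 26 and 17 in dexamethasone replicates 1, 2 and 3. Ocstamp, also not tested, had 0, 6 and 1 reads and then 20, 6 and 14. The chondrocyte markers, led by Sox9, summed to 5955 to 6413 and 22115 to 24965, with 2 of 3 tested called higher and 1 lower. Most of this sum was Sox9 and Col2a1, the genes called higher, whereas Comp was called lower. Acan, Col9a1 and Matn3 had few reads and were not tested, and Col9a1 had 3 reads or fewer in every library. The adipocyte markers, led by Pparg, summed to 26.4 to 34.3 and 24.4 to 27.3. The smooth muscle and pericyte markers, led by Acta2, summed to 148092 to 155942 and 21898 to 23354, with 1 of 5 tested called lower. Most of this sum was Acta2, the gene called lower, which fell from a mean of 144918 to 12449. The other tested markers were not called, with log2 fold changes of -0.89 for Myh11, 0.43 for Cspg4, 0.72 for Rgs5 and 0.064 for Tagln. Markers of fibroblasts and tendon, led by Dcn in the controls and by Pdgfra with dexamethasone, summed to 8185 to 8649 and 10124 to 10984. Of these, 1 of 5 tested was called higher and 2 lower. In bulk RNA, fewer cells of a type and less RNA per cell cannot be told apart, and the part of these markers in the fall of Bmp4 was not tested.

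**Figure D4:**
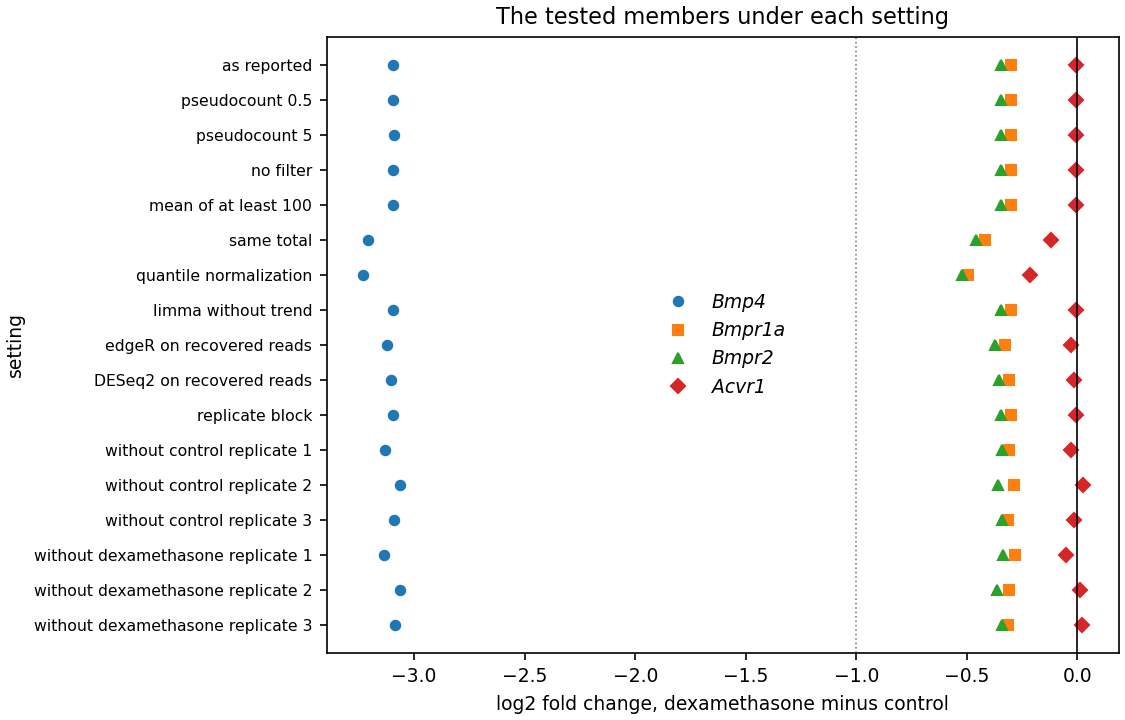
Log2 fold changes (dexamethasone minus control, x axis) of the 4 tested members as reported and under 16 other settings (y axis), one marker shape per gene, with a dotted line at the cut-off of -1. Bmp4 stays between -3.23 and -3.06, Bmpr1a and Bmpr2 between -0.52 and -0.28, and Acvr1 lies around 0 except at the same total and after quantile normalization.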

How the data were processed

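RNA-seq of bone cells was analysed in 3 control and 3 dexamethasone libraries. The libraries were made from 1 µg of total RNA with a KAPA Stranded mRNA-Seq Kit. According to the methods and the submitters' processing notes, reads were aligned and counted per gene with STAR (2.7.10a) and normalized with DESeq2 (1.36.0), and the notes name GRCm39. The annotation release and strand setting are not given in the sources used here. The authors deposited a normalized signal, in which reads of a gene were scaled by the size factor of the library. Multiplying this scaling back gave whole reads for 100% of values (tolerance 0.001 reads). Of 29616 identifiers, 28087 matched a symbol in GENCODE M21, which also gave exon lengths.

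Genes with a mean of at least 10 were compared on log2(normalized count + 1), which understates the change of low genes, with limma 3.58.1 (R 4.3.3, trended eBayes) and Benjamini-Hochberg adjustment over 17442 genes. On the recovered reads, edgeR 4.0.16 called 3944 genes and DESeq2 1.42.0 called 3870, against 3894. Ratios and shares were compared by an exact permutation test. Alternatives varied the pseudocount, the filter, the scaling, the eBayes trend and the gene length, added a replicate block, or omitted single libraries. Named genes are the members, up to 4 genes with the highest mean in each pathway list, the marker with the highest mean over all libraries in each cell type list and the 3 genes nearest in profile. Other genes were named after their values were seen. The members and lists were chosen with earlier results of these data known.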

Additional observations from a re-analysis of the deposited data

How the results depend on the processing

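The number of members called differentially expressed was 1 (Bmp4) under 15 other settings, and Bmp4 was called in each of 16 fits, with a log2 fold change between -3.23 and -3.06. The number was 2 without a filter, where Bmp3 with 0 to 5 reads was added, and 3 at an adjusted p-value under 0.05 alone, where Bmpr1a and Bmpr2 were added, both by construction. Among the pathway genes 16 were called, and 13 to 19 under the other settings. No pairing by replicate number was seen, as deviations from the group means correlated at -0.0999, -0.105 and -0.0199 between libraries sharing a number. Under a replicate block 1 member and 16 pathway genes were called, and the log2 ratio of Bmpr2 to Bmpr1a kept its difference of -0.044 (exact p = 0.5).

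Genes with small changes turned direction, and the cause was not tested. The log2 fold change of Acvr1 ranged from -0.053 to 0.024 on omitting single libraries, above 0 without control replicate 2, dexamethasone replicate 2 or dexamethasone replicate 3. That of Acvr2b (0.017) was -0.0962 at the same total, -0.00146 with edgeR and between -0.11 and 0.10 when a library was left out. That of Rgma (0.0070) was -0.11 at the same total, -0.0994 after quantile normalization, -0.014 with edgeR and between -0.051 and 0.070 when a library was left out. Twsg1 and Smad5 went to -0.020 and -0.0419 at the same total and to -0.13 each after quantile normalization. The median of the other receptors and co-receptors, which is the value of Rgma, moved with it to -0.11, -0.0994 and -0.014, and lay between -0.051 and 0.058 when a library was left out. The median of the processing enzymes (-0.21) was 0.34 at a mean of at least 100, where fewer genes were left. That of the BMP Smads and Smad4 (0.17) was -0.035 after quantile normalization. The shares of receptor genes depend on the length. Without division by length, Bmpr2 took 52.3% and Acvr1 14.4% of the control sum, and the direction of the differences stayed. Genes with 10 reads or fewer in every library, Bmp2, Bmp3 and Bmpr1b, limit what depth can show, and the ratios of the pairs Bmp6/Bmp7 and Bmp5/Bmp7 were not run.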

Other observations

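Other BMP-type ligand and receptor genes had few reads and did not pass the filter over all 6 libraries. In the list of other ligands, 1 gene was called higher without a filter and 1 without control replicate 3. In replicate order, Bmp8a had 5, 2 and 2 reads in the controls and 15, 7 and 3 with dexamethasone. Likewise, Bmp8b had 2, 10 and 3 reads in the controls and 12, 9 and 18 with dexamethasone, and Gdf7 had 3, 3 and 5 and then 3, 13 and 7. Acvrl1, the type I receptor gene of endothelial cells, had 0, 2 and 0 reads in the controls and 5, 7 and 2 with dexamethasone. Lower counts with dexamethasone were found for Bmp15, with 4, 5 and 2 reads in the controls and 0, 1 and 1 with dexamethasone, and for the co-receptor gene Hjv, with 6, 6 and 11 and then 0, 0 and 2. Gdf2 and Gdf5 had 3 reads or fewer in every library. No fold is given for these genes.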
